A study of Salmo salar with 189 samples.

Results

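Clock gene transcripts were compared between constant light (LL) and constant darkness (DD) in the saccus vasculosus (SV) of Atlantic salmon. The samples were chosen by tissue, light treatment and circadian time alone: every SV sample taken at CT9, CT13, CT17, CT21, CT25 and CT29 in either light, which gave 18 LL and 18 DD samples, 36 of the 189 samples of the series, with 3 fish per light and time point. All fish were juvenile pre-smolts of about 45 g that had been raised under LL with daily feeding, and no genetic change or drug was involved. Both groups shared a light and dark cycle (LD) for 8 weeks, given as 8 h light and 16 h dark in the sample labels and with a shorter day in the study's own text. They also shared water at 14 °C and a fast that began 48 h before sampling, and fish in the dark were sampled under red light. The sample names put the LL fish under the letter A, as they do the LD samples, and the DD fish under B, which are called arms here. The study's text says that fish were split over a pair of tanks but not which fish were in which, so light and arm, and whatever tank goes with it, cannot be told apart. Each sample was 1 fish sampled once, so no fish was followed through time. The tissue label could not be checked, because the probe set held clock genes alone and no marker of the SV.

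The SV is a highly vascular, folded organ on the floor of the fish hypothalamus, with coronet cells and nerve fibres that reach the hypothalamus. It carries light-sensitive opsins and has been tied to day length sensing in masu salmon. In the vertebrate clock, the activators Clock and Arntl (Bmal) switch on Per and Cry, whose proteins then repress the activators. The Nr1d (Rev-erb) repressors and the Ror activators set the level of Arntl, the PAR bZIP factors Tef, Hlf and Dbp carry the rhythm to other genes, and casein kinase 1 marks Per proteins for turnover. In zebrafish, light also raises some Per and Cry genes directly. The salmonid genome doubling (Ss4R) left most of these genes in pairs (ohnologues), and the suffix of each name, such as Ch22, is the salmon chromosome that carries the copy.

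The assay counted barcoded probes on single mRNA molecules, each probe pair reading a target of 100 bases of its transcript. A 30-base window of the target is shown 5′ to 3′ for the 3 Ss4R pairs that carry the light differences described here and for the transcript that cycled in DD. Capitals mark the longest run of bases that the target shares with the target of its partner, and Nr1d1-Ch6 had no partner among the measured transcripts.
Cry3-Ch22: cacagcgggaccAACAGTcatcatggccgt
Cry3-Ch12: cgcagtagctagAACAGTtatgcaactgtc
Per2-Ch14: atCCAGCcctgaatctgcccgttaattgta
Per2-Ch3: tgcagcagccacaCCAGCagaaagatcaga
Hlf-Ch28: tactttaaaACCTCtcccaagcctacatac
Hlf-Ch1: acACCTCggttctcacatatggtatgaatg
Nr1d1-Ch6: gtggactgcaccataacggccattgcccgg
The longest shared run was 6 bases for the Cry3 pair and 5 bases for the Per2 and Hlf pairs. Without gaps, the Cry3 targets matched at 30 of 97 bases, the Per2 targets at 31 of 95 and the Hlf targets at 32 of 95. Over all 13 pairs the longest shared run was between 5 and 11 bases. The members of a pair were therefore read at different stretches of sequence, and levels of different transcripts were not ranked against each other.

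Of 48 transcripts in the table, 40 had values in the SV and 38 were tested, after the 2 that the study lists as not expressed were left out. The deposited signal is a barcode count scaled to spike-in controls. Within each sample all values were whole multiples of 1 step, and the signal divided by this step gave back the count. The step was 0.835 to 8.14 in LL (median 1.31) and 0.819 to 1.63 in DD (median 1.03). The counts over the 40 transcripts ran from 1385 to 18633 in LL and from 5315 to 17354 in DD, with medians of 11777 and 11558. The LL sample of fish 3 at CT21 stood apart, with the step of 8.14 and 1385 counts against 3976 in the next lowest LL sample. In it 17 of the 38 transcripts had under 20 counts, and Arntl1-Ch26 and Rorb-Ch20 had 1 count each. Results that rest on this shallow library are given with and without it. Counting error is largest in this library. No value among the 36 samples was at the lowest value of the table.

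The SV samples of both light groups differed first in their overall level. The mean log2 signal over the 38 transcripts was 7.60 ± 0.29 in LL and 7.30 ± 0.29 in DD (SD, n = 18 each). LL was higher by 0.29 (SE 0.10), or 1.23-fold, and was higher at 6 of 6 time points (p = 0.00527, two-sided exact permutation of the light labels within time points). With the shallow library left out the shift was 0.31 (p = 0.00315, exact permutation). At CT9 the geometric mean signals of the LL fish were 142, 160 and 209, all above those of the DD fish at 111, 136 and 140. At every other time point the ranges overlapped, as at CT25 with 162 to 217 in LL and 161 to 195 in DD. Of the 38 transcripts, 35 had a higher deposited mean in LL and 3 a lower one, with a median difference of 0.25.

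The scaling moved with light and with time as well. The log2 step was higher in LL by 0.41 (SE 0.15, p = 0.0194, exact permutation), and by 0.29 without the shallow library (p = 0.0295, exact permutation). This difference was not the same at each time. At CT9 the median step was lower in LL (0.926) than in DD (1.42), at CT13 the medians were 0.959 and 0.968, and from CT17 on LL was higher, with 1.85 against 1.09 at CT21 and 1.61 against 0.905 at CT29. The mean log2 of the recovered counts, before spike-in scaling, differed by -0.12 between LL and DD (SE 0.20, p = 0.638, exact permutation), and by 0.03 without the shallow library. The shift in signal was thus not detectable in the recovered counts, whose scatter was larger, and at CT9 the step was lower in LL while the signal was higher. Within light and time groups the log2 step correlated with the mean log2 recovered count at r = -0.87 and with the mean log2 signal at r = -0.26 (36 samples). The count is signal over step, so part of the first value holds by construction. The part that RNA input, cell number and spike-in recovery had in the shift was not tested. In bulk tissue fewer cells of a type and less RNA per cell cannot be told apart. A signal on the relative scale was used for single transcripts: log2(signal + 1) minus the mean of the same sample over the 38 transcripts. On this scale the median residual SD was 0.28, against 0.40 on the deposited scale, and it was smaller for 38 of 38 transcripts. A relative difference is read against the mean of all 38 transcripts, the transcript itself included, so a transcript that shifted less than this mean has a negative value.

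**Figure D1:**
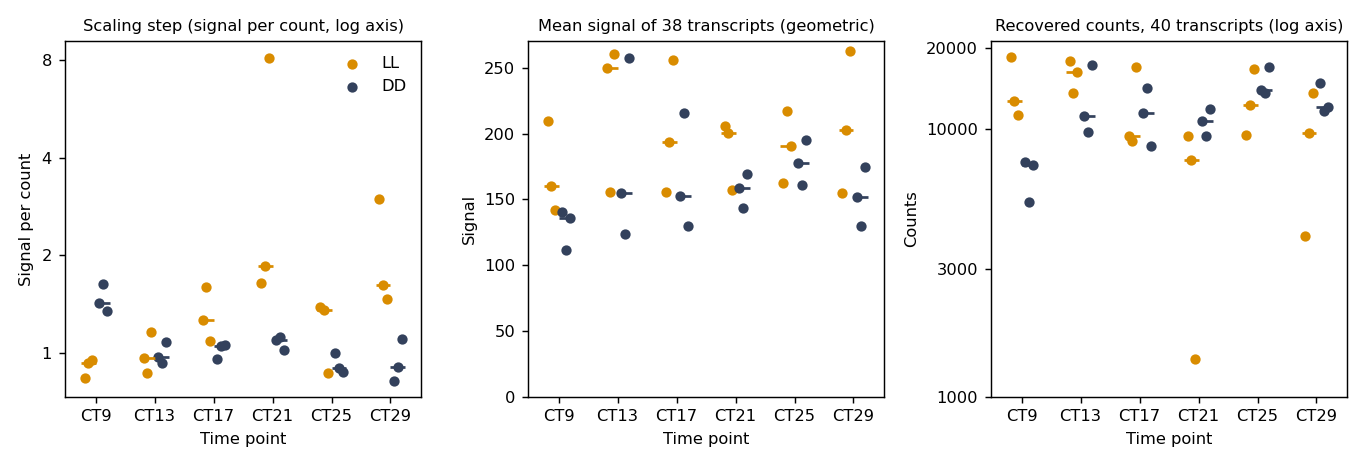
Scaling step (log axis), geometric mean signal over the 38 tested transcripts and recovered counts (log axis) by circadian time in h, with 1 point per fish and short bars at the median of the 3 fish of each light and time. The LL median step lies below the DD median at CT9 and above it from CT17 on, and the shallow LL library at CT21 has the highest step (8.14) and the lowest count (1385).

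On the relative scale 3 transcripts differed between the lights after Benjamini-Hochberg adjustment over all 38. Cry3-Ch22 and Per2-Ch14 were higher in LL, which is 5.26% of those tested, and Hlf-Ch28 was lower, which is 2.63%. Before adjustment 7 transcripts were higher and 3 lower at p under 0.05. On the deposited scale 13 were higher in LL (34.2%) and none was lower, with 17 higher and 0 lower before adjustment. Cry3-Ch22 and Per2-Ch14 were called on both scales, 11 transcripts on the deposited scale alone and Hlf-Ch28 on the relative scale alone. Without the shallow library 6 transcripts were called on the relative scale and 20 on the deposited scale. The deposited count was also 21 without DD fish 3 at CT13, the DD sample of highest overall level.

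**Figure D2:**
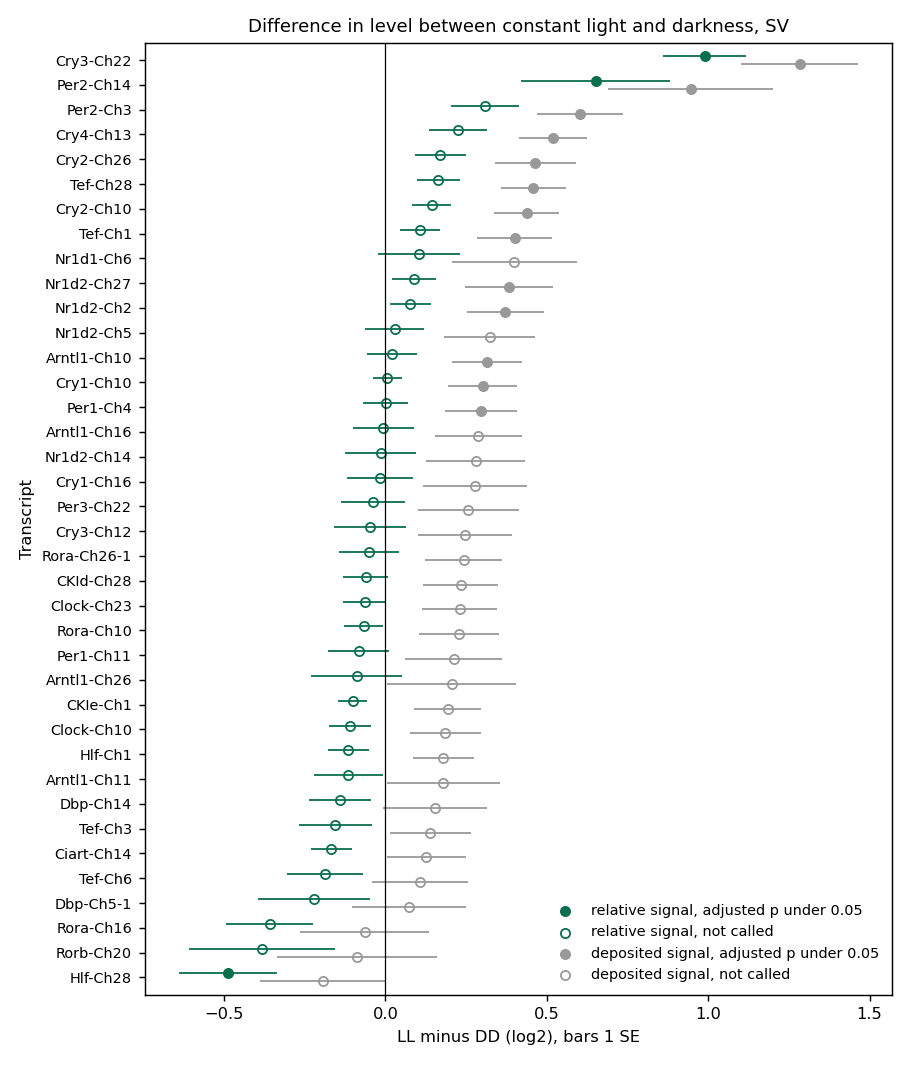
Mean LL minus DD difference (log2, with bars of 1 SE) of each of the 38 transcripts, ordered by the relative difference, on the relative and on the deposited scale. The deposited values are shifted towards LL as a whole, and Cry3-Ch22 has the largest difference on both scales (0.99 relative and 1.28 deposited).

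Cry3-Ch22, of the cryptochrome family, showed the largest light difference. Its deposited signal was 44.5 to 119 in LL (median 87.9) and 16.7 to 79.5 in DD (median 29.8). All 18 LL fish lay above the DD median and 10 of them above every DD fish, so the groups overlapped in part. These counts are on the deposited scale, with its shift towards LL. At CT21 the LL fish were at 113, 99.9 and 114 and the DD fish at 31.6, 30.2 and 29.5. At CT13 the DD fish spread from 16.7 to 79.5 and their highest exceeded the lowest LL fish at 67.6. The relative level was higher in LL by 0.99 (SE 0.13), or 1.98-fold (adjusted p = 5.94e-06, exact permutation), and by 1.28 or 2.43-fold on the deposited scale (adjusted p = 1.54e-05). LL was higher at 6 of 6 time points, by 0.65 at CT17 to 1.56 at CT21, and at 4 of them every LL fish was above every DD fish on the relative scale. It was 0.96 on the relative scale without the shallow library. The median count behind these values was 45 and the lowest 14, in the shallow library.

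Its Ss4R partner Cry3-Ch12 did not pass the test. The signal of Cry3-Ch12 was 24.1 to 60.0 in LL (median 36.4) and 16.4 to 46.2 in DD (median 34.0), with a relative difference of -0.05 (SE 0.11, adjusted p = 0.838, exact permutation) and LL higher at 3 of 6 time points. The ranges overlapped. Of the other Cry transcripts, Cry4-Ch13 (relative 0.22), Cry2-Ch26 (0.17) and Cry2-Ch10 (0.14) were higher in LL on the deposited scale, by 0.52, 0.46 and 0.44, and missed the adjusted threshold on the relative scale (adjusted p = 0.0948, 0.113 and 0.0855, exact permutation). Cry1-Ch10 was called on the deposited scale at 0.30, with a relative value of 0.01 that lay within its SE of 0.04. In all, 5 of 7 Cry transcripts were called on the deposited scale, where 34.2% of all transcripts were, and 1 on the relative scale, where 3 of 38 were, with a relative median of 0.14 against -0.04 over all 38 transcripts.

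Both Per2 transcripts had higher means in LL. Per2, a repressor that light induces directly in zebrafish, was measured as Per2-Ch14 at 27.7 to 521 in LL (median 85.6) and 21.3 to 90.3 in DD (median 48.5). The highest LL value, 521, was the shallow library with 64 counts, and the next highest was 212. Of the LL fish, 15 of 18 lay above the DD median and 6 above every DD fish. These are deposited values, which are shifted towards LL as a whole. On that scale Per1-Ch4, with a relative difference of 0.00, had 13 LL fish above its DD median and 7 above every DD fish. Arntl1-Ch10, with a relative difference of 0.02, had 15 and 1. The relative difference of Per2-Ch14 was 0.65 (SE 0.23), or 1.57-fold (adjusted p = 0.0448, exact permutation), with LL higher at 6 of 6 time points, and 0.49 without the shallow library (adjusted p = 0.0432). At CT9 the LL fish were at 83.5, 100.0 and 107 and the DD fish at 32.7, 44.0 and 48.3, and at CT13 and CT29 the ranges overlapped. This call was lost when any of 21 of the 36 samples was left out, when CT9, CT13, CT17, CT21 or CT25 was left out (adjusted p = 0.0584 to 0.206), with limma (adjusted p = 0.0519) and with 2 other references for the relative scale, and the differences in those settings stayed positive (0.42 to 0.74 over all settings).

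Per2-Ch3 had a deposited signal of 244 to 674 in LL (median 463) and 148 to 439 in DD (median 292). On this scale, which is shifted towards LL, 12 LL fish lay above every DD fish. The lowest LL value came from the shallow library. Its deposited level was higher in LL by 0.60 or 1.52-fold (adjusted p = 0.000743, exact permutation). Its relative difference of 0.31 (SE 0.11) missed the threshold (adjusted p = 0.0711) and passed it without the shallow library (0.33, adjusted p = 0.048). It was positive at 5 of 6 time points and -0.30 at CT29. Per1-Ch4 was called on the deposited scale at 0.30 and had a relative difference of 0.00 (SE 0.07), and Per1-Ch11 had -0.08 (SE 0.09). Of the 5 Per transcripts 3 were called on the deposited scale (34.2% over all transcripts) and 1 on the relative scale (3 of 38 over all), and their relative median was 0.00.

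Among the PAR bZIP output factors Hlf-Ch28 was the transcript that was lower in LL. Its signal was 127 to 589 in LL (median 261) and 149 to 900 in DD (median 283), so the deposited ranges overlapped and the deposited difference of -0.19 (SE 0.20) was not called (adjusted p = 0.363, exact permutation). On the relative scale it was lower in LL by -0.49 (SE 0.15), or 0.713-fold (adjusted p = 0.0448, exact permutation), and lower at 6 of 6 time points, from -0.12 at CT21 to -0.75 at CT25. Without the shallow library it was -0.56 (adjusted p = 0.00408). At CT25 the LL fish were at 127, 190 and 257 and the DD fish at 324, 274 and 280, with no overlap, and at CT13 a DD fish reached 900. The call was lost when any of 23 of the 36 samples was left out, when CT9, CT13, CT17, CT25 or CT29 was left out (adjusted p = 0.0585 to 0.206) and with 2 of the other references, with differences of -0.60 to -0.41 in all settings. Its partner Hlf-Ch1 had a relative difference of -0.11 (SE 0.06, adjusted p = 0.266, exact permutation).

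Of the 8 PAR bZIP transcripts, Tef-Ch28 and Tef-Ch1 were higher in LL on the deposited scale, by 0.46 and 0.40, with relative differences of 0.16 and 0.11 that missed the threshold. Tef-Ch1 had a signal of 1417 to 5122 in LL and 1786 to 3932 in DD, and passed on the relative scale without the shallow library (0.16, adjusted p = 0.0115, exact permutation). Tef-Ch6 (-0.19), Tef-Ch3 (-0.15) and Dbp-Ch5-1 (-0.22) had negative relative values that were not called. The relative median of the group was -0.15, against -0.04 over all 38 transcripts. Of its 8 values 6 were negative, as were 23 of all 38. The share called over all 38 was 34.2% on the deposited scale and 3 of 38 on the relative scale.

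The Nr1d repressors and the Ror activators, which act on the same response elements, had relative medians of 0.08 and -0.21. Nr1d2-Ch27 and Nr1d2-Ch2 were higher in LL on the deposited scale, by 0.38 and 0.37, and none of the 5 Nr1d transcripts was called on the relative scale. Over all transcripts 34.2% were called on the deposited scale and 3 of 38 on the relative scale. Nr1d1-Ch6 had a signal of 16.3 to 83.4 in LL and 17.2 to 68.8 in DD and a relative difference of 0.10 (SE 0.13). All 4 Ror transcripts had negative relative values, as did 23 of all 38 transcripts, and none of the 4 was called on either scale. Rora-Ch16 (-0.36, SE 0.13, adjusted p = 0.0711, exact permutation) had a lower mean in LL at 5 of 6 time points, and its 3 DD fish at CT13 were spread from 56.7 to 301. Rorb-Ch20 (-0.38, SE 0.23) had a median count of 13 and a lowest count of 1, and did not pass (adjusted p = 0.266, and 0.214 without the shallow library, exact permutation).

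The activators Arntl1 and Clock had small differences. Of 6 Arntl1 and Clock transcripts, Arntl1-Ch10 was called on the deposited scale at 0.31 and none on the relative scale, where the 6 values lay between -0.12 and 0.02. Of all 38 transcripts, 34.2% were called on the deposited scale and 3 on the relative scale. The 2 casein kinase 1 transcripts had relative values of -0.06 and -0.10, and neither was called on either scale. Ciart-Ch14, a repressor known in mammals as Chrono, had a relative difference of -0.17 (SE 0.06, adjusted p = 0.0855, exact permutation), and passed without the shallow library (-0.19, adjusted p = 0.04).

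**Figure D3:**
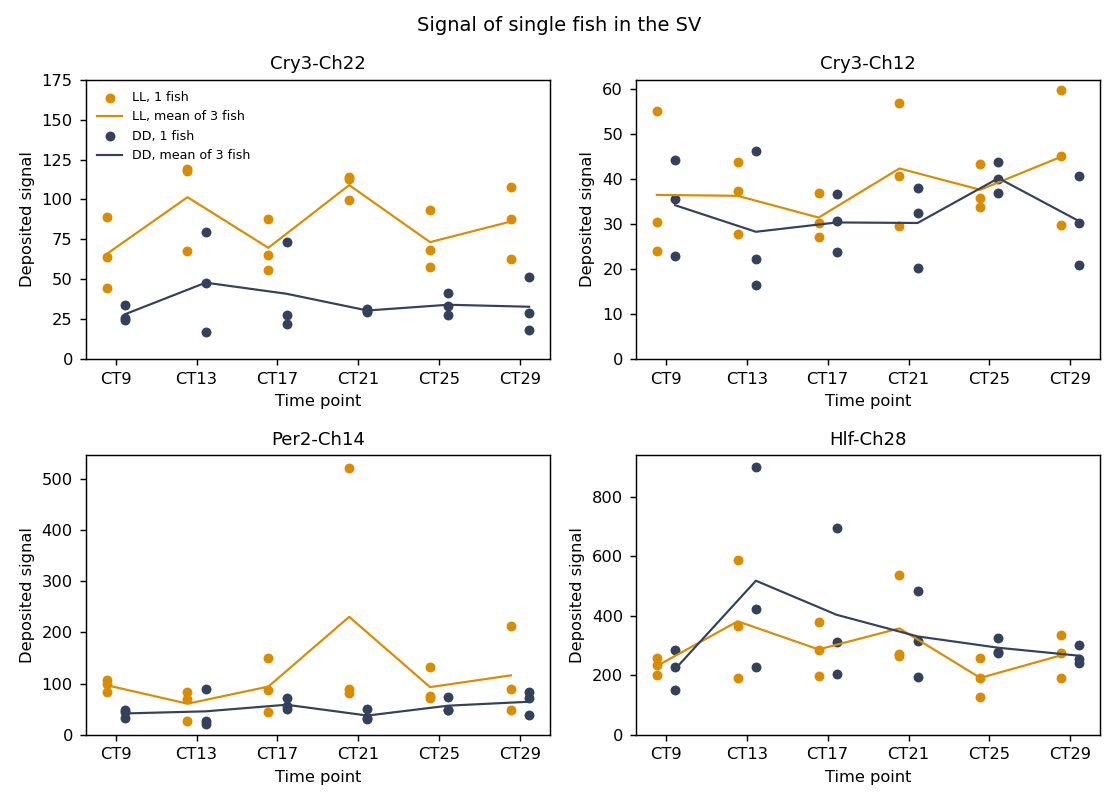
Deposited signal of Cry3-Ch22, Cry3-Ch12, Per2-Ch14 and Hlf-Ch28 in each of the 36 fish by circadian time in h, with lines through the mean of the 3 fish of each light and time. For Cry3-Ch22 all LL fish lie above the DD median of 29.8, and for Cry3-Ch12 the ranges of the lights overlap. The highest Per2-Ch14 point (521) is the shallow library.

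The log2 ratio of both members of a pair in the same sample does not depend on how the sample was scaled. Of the 13 pairs, 1 differed between the lights (7.69%), and 3 had p under 0.05 before adjustment. For Cry3 the log2 ratio of Ch12 to Ch22 was -1.11 ± 0.34 in LL and -0.07 ± 0.59 in DD (SD, n = 18 each), a difference of -1.04 (SE 0.16, adjusted p = 8.12e-06, exact permutation). The ratio ran from -1.90 to -0.54 in LL and from -1.47 to 0.77 in DD, and its mean was lower in LL at 6 of 6 time points. The difference was -1.07 with the shallow library left out. The Hlf pair (Ch1 to Ch28, 0.37, SE 0.16) and the Rora pair (Ch10 to Ch16, 0.29, SE 0.13) did not pass (adjusted p = 0.100 for each, exact permutation). The Per2 pair ratio differed by 0.34 (SE 0.26, adjusted p = 0.696), and both members of that pair had higher means in LL.

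Rhythms were tested in each light with JTK_CYCLE, which ranks the 18 values against curves of 20 h and 24 h. The 6 time points span a single cycle, so it was not measured whether a pattern repeated. On the deposited scale no transcript cycled in LL (0 of 38, 0%), with 2 below 0.05 before correction over the 11 curves and 1, Ciart-Ch14, by the cosinor permutation test. In DD 1 transcript cycled (2.63%), Nr1d1-Ch6, a Rev-erb repressor (adjusted p = 0.0199, JTK_CYCLE test), and 10 were below 0.05 before correction over the curves. In DD its signal was highest at CT17, with fish at 48.7, 67.0 and 40.2, and lowest at CT29, with 17.2, 19.9 and 26.5, so these times did not overlap. Its 24 h amplitude in DD was 0.52 (log2, SE 0.15) with a peak at CT17.0. In LL the amplitude was 0.26 (SE 0.22) and the fish at CT17, at 31.6, 46.3 and 72.8, overlapped with those at CT29, at 32.9, 25.8 and 83.4. The DD call of Nr1d1-Ch6 was lost without any 1 of 4 fish (fish 1 or 2 at CT17, fish 1 or 2 at CT29). Without DD fish 3 at CT13, 7 transcripts were called in DD. Cry2-Ch10 (adjusted p = 0.0623) and Tef-Ch1 (adjusted p = 0.104, JTK_CYCLE test) came next in DD. With adjustment over the 38 transcripts no rhythm passed by JTK_CYCLE in either light on either scale. By the cosinor none passed such adjustment on the deposited scale, and 1 in LL (Ciart-Ch14) and 2 in DD (Nr1d1-Ch6 and Tef-Ch1) passed on the relative scale.

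On the relative scale the time course of the scaling is taken out, and so is any rhythm that the 38 transcripts share. Subtracting the mean can also give a pattern to a transcript that has none. On this scale 2 transcripts cycled in LL (5.26%) and 3 in DD (7.89%) by JTK_CYCLE, and none of them was called in both. Of these calls only that of Nr1d1-Ch6 in DD was also made on the deposited scale. By the cosinor permutation test 8 had p under 0.05 in LL and 10 in DD before adjustment, 4 of them in both lights (CKIe-Ch1, Clock-Ch23, Cry2-Ch10 and Cry4-Ch13). The LL calls by JTK_CYCLE were Ciart-Ch14 (adjusted p = 0.00255) and Per1-Ch4 (adjusted p = 0.0359, JTK_CYCLE test). Both matched a 20 h curve best. Their 24 h cosinor amplitudes were 0.35 (SE 0.07) and 0.27 (SE 0.07), with peaks at CT19.4 and CT19.7. The deposited mean of Ciart-Ch14 in LL was 133 at CT9 and 253 at CT21, and at these times the fish did not overlap (110 to 149 and 228 to 280). Per1-Ch4 had LL means of 460 at CT9 and 803 at CT17. Without the shallow library Per1-Ch4 lost its LL call (adjusted p = 0.0742), and the 2 LL calls were Ciart-Ch14 and Per1-Ch11. The DD calls by JTK_CYCLE were Nr1d1-Ch6 (adjusted p = 0.00755), Tef-Ch1 (adjusted p = 0.00255) and CKIe-Ch1 (adjusted p = 0.0146, JTK_CYCLE test). Each of them matched a 24 h curve best. Tef-Ch1 had a relative amplitude of 0.26 (SE 0.04) in DD with a peak at CT4.0 and 0.16 (SE 0.09) in LL. CKIe-Ch1, a casein kinase 1 epsilon, had 0.16 (SE 0.04) in DD and 0.17 (SE 0.07) in LL, with peaks at CT3.8 and CT8.7. Without the shallow library the LL amplitudes were 0.14 (SE 0.04) for Tef-Ch1 and 0.09 (SE 0.05) for CKIe-Ch1. Peak times are folded into 24 h, so CT4.0 and CT3.8 fall 24 h later in the sampled window. The highest deposited DD means of both transcripts were at CT25. The amplitudes were small in both lights, with deposited medians of 0.16 in LL and 0.20 in DD.

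**Figure D4:**
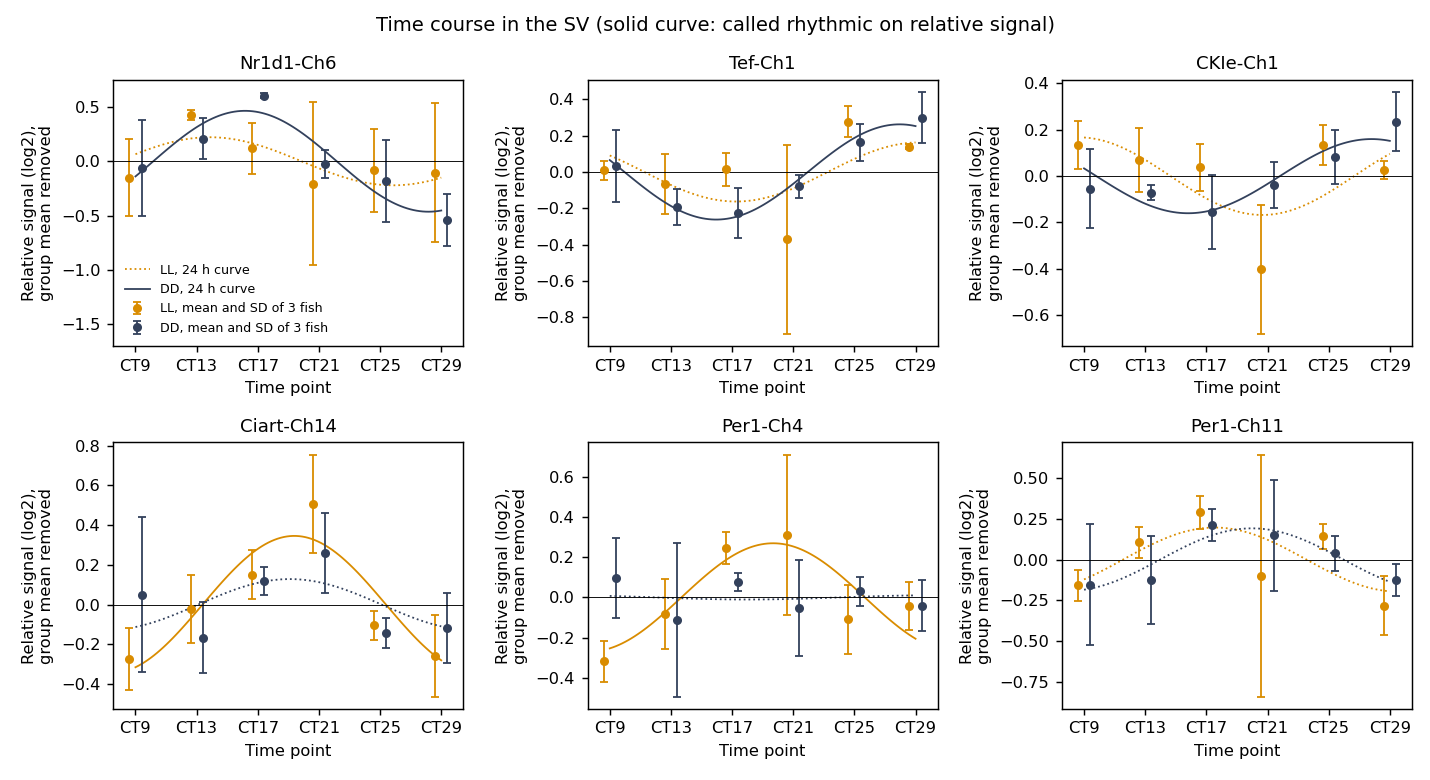
Relative signal minus the mean of its light group (log2, mean and SD of 3 fish) by circadian time in h for Nr1d1-Ch6, Tef-Ch1, CKIe-Ch1, Ciart-Ch14, Per1-Ch4 and Per1-Ch11, with the fitted 24 h curve, solid where JTK_CYCLE called a rhythm on the relative scale. Nr1d1-Ch6 falls from CT17 to CT29 in DD, and Per1-Ch4 has an LL amplitude of 0.27 and a DD amplitude of 0.01.

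A rhythm called in only one light was not shown to differ between the lights. In the direct test of the 24 h curves, 0 of 38 transcripts differed on the deposited scale (0%, lowest adjusted p = 0.982, permutation test), and 0 on the relative scale. For Nr1d1-Ch6 the amplitudes differed by -0.26 on the deposited scale (adjusted p = 0.820, permutation test). The amplitude test alone gave 1 call on the relative scale, Per1-Ch4, with 0.27 in LL and 0.01 in DD (adjusted p = 0.0228, permutation test), and none on the deposited scale. This call was lost without the shallow library, where the Per1-Ch4 amplitudes were 0.21 and 0.01 (adjusted p = 0.0733, permutation test). At CT9 the Per1-Ch4 signals were 544, 469 and 367 in LL and 454, 383 and 572 in DD. At CT21 they were 759, 688 and 904 in LL, the last of them the shallow library, and 613, 457 and 469 in DD.

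The light difference in the SV was set against that in the optic tectum (OT) of the same fish, for 18 LL and 17 DD fish with both tissues. These comparisons use the SV samples again and are not independent of those above. Of 37 transcripts measured in both, 10 had a different LL minus DD value in the SV (27%, exact permutation over fish), and 13 before adjustment. The count was 12 without the shallow library, with Hlf-Ch28, Hlf-Ch1 and Per1-Ch11 added and Per1-Ch4 lost. In the OT itself 26 transcripts were called, 9 higher and 17 lower in LL. Cry3-Ch22 had a relative difference of 1.04 in the SV (SE 0.12) against 0.45 in the OT (SE 0.04), larger in the SV by 0.58 (adjusted p = 0.00201). For Cry3-Ch12 it was -0.06 in the SV and 0.29 in the OT, smaller in the SV by 0.35 (adjusted p = 0.013).

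Both Per2 transcripts had a smaller light difference in the SV than in the OT. Per2-Ch14 had 0.64 in the SV (SE 0.24) against 1.37 in the OT (SE 0.13, adjusted p = 0.00492), and Per2-Ch3 0.28 (SE 0.11) against 0.81 (SE 0.06, adjusted p = 0.000536, exact permutation). The OT values of Tef-Ch3 (-0.57), Tef-Ch6 (-0.53), Per3-Ch22 (-0.34), Arntl1-Ch16 (-0.30), Per1-Ch4 (-0.19) and Cry2-Ch26 (-0.15) were negative. The SV values of the first 5 of these lay between -0.20 and 0.01 and that of Cry2-Ch26 was 0.16, and each SV value was above its OT value by 0.18 to 0.40. For Per1-Ch4 the difference between the tissues rested on the shallow library (0.18, adjusted p = 0.0492, and 0.15, adjusted p = 0.0766 without it, exact permutation). The SE of the SV differences was larger than that of the OT for each of these 10 transcripts.

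In the gill of the same 36 fish 10 transcripts were called, 4 higher and 6 lower in LL. Of 36 transcripts measured in both tissues, 2 differed between SV and gill (5.56%, exact permutation over fish), and 7 before adjustment. Per1-Ch4 had -0.01 in the SV and -0.37 in the gill (adjusted p = 0.00672), and Ciart-Ch14 had -0.18 and -0.50 (adjusted p = 0.0265). Without the shallow library 5 transcripts differed, with Cry2-Ch26, Hlf-Ch28 and Per1-Ch11 added. For Cry3-Ch22 the gill value of 1.04 (SE 0.13) and the SV value of 0.98 (SE 0.13) differed by -0.07 (SE 0.14, adjusted p = 0.830, exact permutation).

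**Figure D5:**
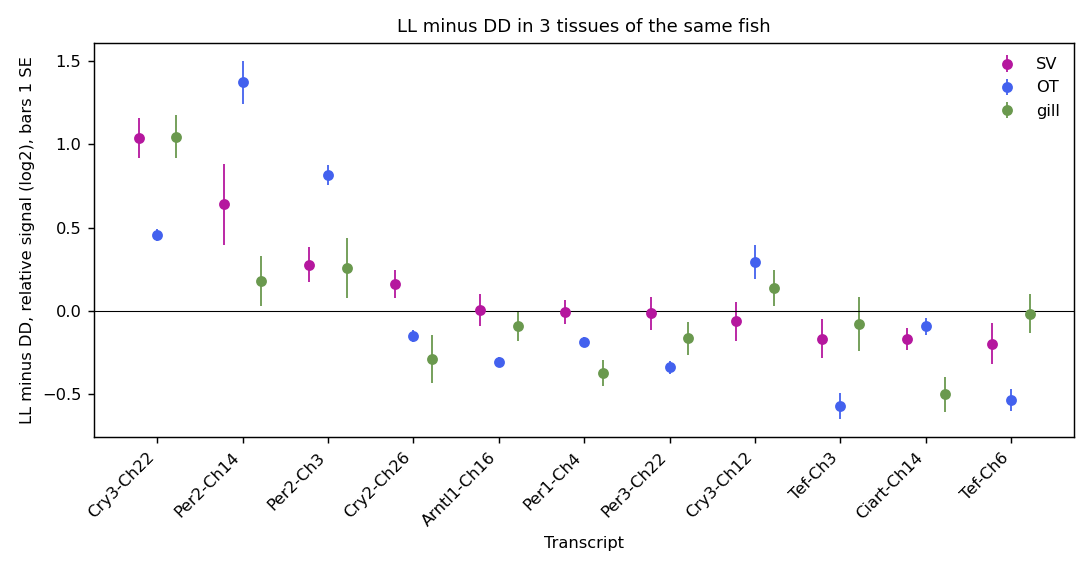
LL minus DD relative difference (log2, with bars of 1 SE) of 11 transcripts in the SV, the OT and the gill. The SV values are those over the transcripts measured in the SV and the OT. Cry3-Ch22 is higher in LL in all 3 tissues, and Per2-Ch14 and Per2-Ch3 have their largest values in the OT.

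The dark hours of the LD cycle, sampled at the same clock times from CT9 to CT21, gave a comparison within the arm of the LL fish, with 12 fish on each side. On the relative scale 1 transcript differed (2.63%), and 4 before adjustment. Cry3-Ch22 was higher in LL than in the LD dark phase by 0.56 (SE 0.10, adjusted p = 0.0371, exact permutation), and by 0.53 without the shallow library. On the deposited scale none was called, and Cry3-Ch22 had 0.67 (adjusted p = 0.167, exact permutation). The signal in the LD dark phase was 32.3 to 82.6 with a median of 53.4, between the medians of LL (87.9) and DD (29.8) over all their time points. DD was also set against the LD dark phase, with darkness in both but from different arms. The LD fish had been in light earlier on the same day and the DD fish had not. Arm and preceding light cannot be told apart in this comparison, which gave 0 calls of 38 (0%) and 3 before adjustment. There Cry3-Ch22 had a difference of -0.41 (SE 0.15, p = 0.0098, adjusted p = 0.150, exact permutation). The overall level differed from that of the LD dark phase by 0.11 in LL (SE 0.12, p = 0.373) and by -0.21 in DD (SE 0.12, p = 0.116, exact permutation). Days in the experiment differed between LD and the constant conditions as well, and their part in these values cannot be told apart from light.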

How the data were processed

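Abundance of clock gene transcripts was measured with a NanoString CodeSet. SV RNA was extracted with a micro kit. The authors scaled the barcode counts to spike-in positive controls and deposited the values as normalised signal, processed with nSolver. Each sample's step was found from the signal (largest distance of signal over step from a whole number 0.0074). The authors' methods name no reference gene, and the values deposited hold none. Gene names of the 38 tested transcripts were matched to RefSeq annotation Ssal_v 3.1, for names alone, and target sequences came from the study's probe table.

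Levels were compared on log2(signal + 1) by exact permutation of the light labels within time points (64000000 allocations, two-sided). The mean over time points of the LL minus DD difference was the statistic, with Benjamini-Hochberg adjustment over the 38 transcripts, or the 13 pairs, at 0.05. The SE came from the pooled variance of the fish within each light and time point. JTK_CYCLE was rewritten with an exact null for distinct ranks, with Bonferroni correction over 11 curves and no adjustment over transcripts. The test curves hold equal points, so this null is not exact for them. Amplitudes are from a 24 h cosinor, in log2 units, and curves were compared with 100000 permutations. Adjusted p-values are Benjamini-Hochberg values except for JTK_CYCLE. Alternatives were limma 3.58.1 in R 4.3.3, a pseudocount of 10, other references, recovered counts, and samples or time points left out. Main tests used Python 3.11.15, numpy 2.4.6, pandas 2.3.3 and scipy 1.17.1. The level test, JTK_CYCLE, the test of the 24 h curves and the step search were tried on simulated data. The cosinor permutation test and the amplitude test were not.

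Named transcripts are those called on either scale, those rhythmic on the deposited scale, called pairs, the 5 largest relative differences in each direction and the transcripts the study names for the SV or for several tissues. CKIe-Ch1 and other transcripts named beside single counts were chosen after their values were seen. The members and lists were chosen with earlier results of these data known. The study's list of clock genes and duplicates gave the pairs.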

Additional observations from a re-analysis of the deposited data

Results flagged for a closer look

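The LL minus DD difference on the relative scale differed between the SV and another tissue of the same fish for several transcripts, by a test of the difference itself. Against the OT the SV minus OT value was 0.58 for Cry3-Ch22, 0.40 for Tef-Ch3, 0.34 for Tef-Ch6, 0.32 for Per3-Ch22, 0.31 for Cry2-Ch26, 0.31 for Arntl1-Ch16 and 0.18 for Per1-Ch4. It was -0.73 for Per2-Ch14, -0.53 for Per2-Ch3 and -0.35 for Cry3-Ch12. Against the gill it was 0.36 for Per1-Ch4 and 0.32 for Ciart-Ch14. The 24 h amplitude of Per1-Ch4 on the relative scale was larger in LL than in DD by 0.26 in the test of the amplitude difference, and by 0.19 without the shallow library, where it no longer passed (adjusted p = 0.0733, permutation test).

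A pair of casein kinase 1 transcripts that the study lists as not expressed carried signal in the SV and was left out of the 38 tested. CKId-Ch1 had a median signal of 68.5, with 43.1 to 209 in LL and 31.3 to 232 in DD, and a lowest count of 11. CKIe-Ch28 had a median signal of 880.1, with medians of 938 in LL and 809 in DD, and a lowest count of 75. A count of 3 corresponded to a signal of at most 24.4 in these samples, with counting error alone in view. Their relative LL minus DD differences were -0.27 (p = 0.162) and -0.07 (p = 0.114, exact permutation, unadjusted).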

How the results depend on the processing

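The overall shift stayed positive and past the threshold with all 40 transcripts, with the median in place of the mean and with at least 5000 counts (0.26 to 0.35), and with single samples left out (0.26 to 0.34), and was -0.12 (p = 0.638, exact permutation) on recovered counts. Cry3-Ch22 remained called in every alternative of the LL and DD comparison, on both scales and as a pair. The count of 3 relative calls was 5 with a pseudocount of 10, 1 with median of ratios and 1 with total signal as reference, and 9 with the casein kinase 1 transcripts as reference. It was 1 without CT9, CT13, CT17 or CT25 each, 10 without CT21, which holds the shallow library, and 6 with libraries of at least 5000 counts, an alternative chosen after seeing the data. With single samples left out it ranged from 1 to 6. It was 1 in 19 settings (LL fish 2 and 3 at CT9, 3 at CT13, 2 at CT17, 2 at CT21, 1 and 2 at CT25, 2 and 3 at CT29, and DD fish 2 and 3 at CT9, 1 at CT13, 1 and 2 at CT17, 1 and 3 at CT21, 1 and 3 at CT25, 1 at CT29), and 6 without LL fish 3 at CT21, DD fish 1 at CT9, DD fish 2 at CT13 or DD fish 3 at CT17. The count of 13 deposited calls was 1 on recovered counts, 22 with at least 5000 counts, and 9 to 21 with single samples left out. Of the 13 deposited calls, Arntl1-Ch10 (-0.0917), Cry1-Ch10 (-0.11), Nr1d2-Ch2 (-0.0404), Nr1d2-Ch27 (-0.0273), Per1-Ch4 (-0.12) and Tef-Ch1 (-0.0120) changed sign on recovered counts. Over all 38 transcripts, 8 were higher and 30 lower in LL on recovered counts, against 35 and 3 as deposited. Recovered counts are not scaled to the spike-in controls and moved with the step of the sample. The median difference over the 38 transcripts was 0.25 as deposited, -0.04 on the relative scale and -0.15 on recovered counts. The 1 pair call was 3 without CT21, 2 with at least 5000 counts and 1 to 2 with single samples left out. Rhythmic calls in LL (0) were 2 on the relative scale, 1 by cosinor and 2 on the relative scale without the shallow library. In DD (1) they were 3 on the relative scale, 5 by cosinor, 2 with 24 h alone, 0 with adjustment over transcripts and 0 to 7 with single samples left out. Calls against the OT (10) were 10 with a pseudocount of 10 and 12 without the shallow library. Calls against the gill (2) were 4 with a pseudocount of 10 and 5 without the shallow library. The 1 call of LL against the LD dark phase was 0 on the deposited scale. Apart from the changes shown by construction (fewer samples), the cause was not tested. The part of counting error in transcripts with few counts was not tested. In the shallow library 17 of the 38 had under 20 counts. No paired analysis was possible because LL and DD samples came from different fish and the replicate numbers were given in accession order.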
